A study of Zea mays with 4 samples.

Results

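The genes of the plastid genome were followed in single-cell RNA sequencing of maize endosperm, the starch-storing tissue that feeds the embryo. They were taken as the features of the deposited gene tables whose identifier begins with Zema, which gave 157 of 45953 features. The samples were wild-type B73 inbred kernels, with 3 libraries of biological replicates at 7 days after pollination (DAP) and 1 library at 6 DAP. Endosperm of 80 to 100 kernels was pooled and digested to protoplasts for each preparation, and a 3' droplet kit tagged each captured transcript with a unique molecular identifier (UMI). No treatment or mutant was involved, and the labels separate the groups by age alone. With 1 library at 6 DAP there is no replicate check on any difference between ages, and no test was run between them.

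Plastids carry a small circular genome of bacterial descent. In leaves it supplies the chloroplast with core subunits of the photosystems, while in starchy endosperm the plastids become amyloplasts, which store starch and do not photosynthesise. A nuclear-encoded enzyme of phage type transcribes housekeeping genes such as *clpP* and the *rpoB* operon, and a bacterial-type enzyme, whose core subunits are encoded by *rpoA*, *rpoB*, *rpoC1* and *rpoC2* in the plastid itself, transcribes most photosynthesis genes. A large repeat of the plastid genome holds the ribosomal RNA genes and some protein genes in duplicate. Plastid messengers have no stable poly(A) tail and the kit primes on runs of A, so UMI counts are not a measure of how abundant one plastid transcript is against another.

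The libraries held 5835, 5918 and 5274 barcodes at 7 DAP and 4627 at 6 DAP, with 26756925, 36740377 and 33751416 UMIs at 7 DAP against 8248575 at 6 DAP. Cells were kept with 500 to 7500 detected genes and at least 1000 UMIs (4815, 4871 and 4385 cells at 7 DAP, and 3141 at 6 DAP). Kept cells had a median of 3979, 5599 and 5659 UMIs at 7 DAP and of 1814 UMIs at 6 DAP, so depth and age moved together. Any pair of libraries shared 4 to 8 barcodes. In all, 19625 plastid UMIs fell in the 17212 kept cells and 29624 in all 21654 deposited barcodes.

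Of the 157 plastid genes, 58 had a UMI in the kept cells and 99 had none, and no further gene appeared when all deposited barcodes were counted. The genes that were seen were nearly all protein genes in single copy in the plastid genome. Outside the large repeat, 57 of 70 protein genes had UMIs. Inside the repeat, taken by gene order as the stretches from each *rps19* copy to the nearest *rps15* copy, 1 of 64 members had a UMI, and it had 1. The 39 transfer RNA genes and the 8 ribosomal RNA genes had 0 UMIs, among them all 23 transfer RNA genes outside the repeat. A read that matches both copies of a repeat cannot be given to either gene, and how far that sets the zeros was not tested. Among protein genes outside the repeat, *rbcL*, which encodes the large subunit of Rubisco, the carbon-fixing enzyme, had 0 UMIs in every library. The limit that a count of 0 allows, taken as 3 UMIs in a library, was 0.117, 0.0848 and 0.0925 CPM (UMIs per 1000000 UMIs of the library's kept cells) at 7 DAP and 0.421 CPM at 6 DAP. The short photosystem II genes *psbI*, *psbM*, *psbJ*, *psbL*, *psbF* and *psbT* were at 0 as well, and so were *psaI*, *petN*, *petL*, *petG*, *ycf4* and *rpl36*. Whether reads of these genes also match sequence outside the plastid genome was not tested, so the limit holds for assigned UMIs only.

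The plastid UMIs came mostly from housekeeping genes. *clpP*, the proteolytic subunit of the plastid Clp protease, had the most, with 1017, 1170 and 950 UMIs at 7 DAP and 195 at 6 DAP. It made up 17.1%, 17.0% and 16.8% of plastid UMIs at 7 DAP and 17.5% at 6 DAP, so that the 4 libraries differed by less than a percentage point. Genes of the plastid's own expression machinery, the 30 genes for RNA polymerase, ribosomal proteins and initiation factor *infA*, held 58.2% ± 2.48 of plastid UMIs at 7 DAP (SD, n = 3) and 50.2% at 6 DAP (95% binomial interval 47.2% to 53.2%). All 4 polymerase subunit genes were detected, with 17.1% ± 0.334 of plastid UMIs at 7 DAP and 17.0% at 6 DAP. Proteins of the large ribosomal subunit held 20.9% ± 0.939 at 7 DAP and 17.1% at 6 DAP, and those of the small subunit held 19.4% ± 1.57 at 7 DAP and 15.2% at 6 DAP. *matK*, which encodes an intron maturase, held 5.67%, 4.55% and 4.47% at 7 DAP and 6.27% at 6 DAP.

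Photosynthesis genes held a smaller share. The 45 genes for both photosystems, the cytochrome b6f complex, ATP synthase, the NDH complex and Rubisco held 20.2%, 17.5% and 17.8% of plastid UMIs at 7 DAP, and 24.1% at 6 DAP (interval 21.6% to 26.7%). A UMI was seen for 32 of them. Most of those UMIs were of the NDH complex, an NAD(P)H dehydrogenase-like complex of cyclic electron flow, and of ATP synthase, with 1614 and 1225 UMIs over the 4 libraries. Photosystem II genes had 399 UMIs over 15 genes and photosystem I genes 200 over 5. *psbA*, which encodes the D1 protein of photosystem II, had 68, 53, 55 and 5 UMIs in the 7 DAP replicates 1, 2 and 3 and the 6 DAP library. The list of genes known from other plants to be read by the nuclear-encoded polymerase (*rpoB*, *rpoC1*, *rpoC2* and *clpP*) held 28.2%, 27.9% and 28.2% of plastid UMIs at 7 DAP and 29.7% at 6 DAP. The list known to be read by the plastid-encoded polymerase (*psbA*, *psbB*, *psbC*, *psbD*, *psaA*, *psaB* and *rbcL*) held 2.23%, 1.80% and 1.84% at 7 DAP and 2.33% at 6 DAP. Some neighbours overlap (*psbD* with *psbC*, *ndhC* with *ndhK*, *atpB* with *atpE*), and the split of UMIs within those pairs is uncertain.

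**Figure D1:**
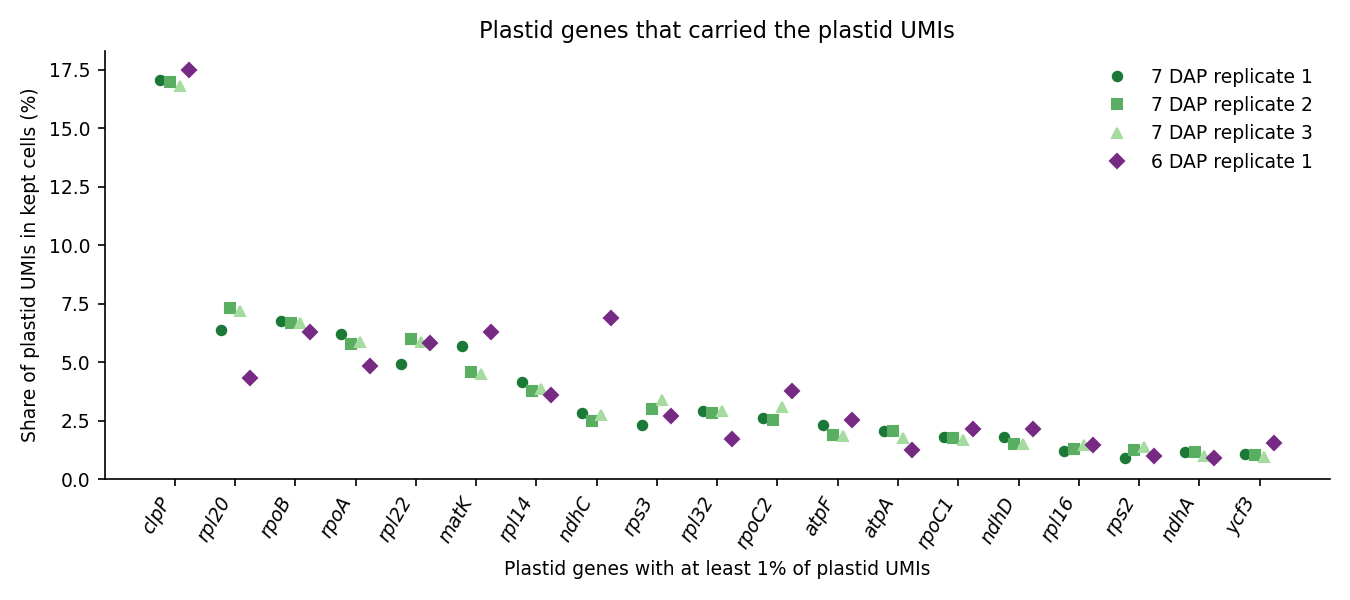
Share of plastid UMIs in kept cells (%, vertical axis) for 19 of the 21 plastid genes that held at least 1% of them, 1 point for each library (3 at 7 DAP, 1 at 6 DAP). *clpP* lies at 16.8% to 17.5% in every library, and *ndhC* stands at 6.90% at 6 DAP against 2.48% to 2.82% at 7 DAP.

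The UMIs lay in runs of neighbouring genes. RefSeq (assembly Zm-B73-REFERENCE-NAM-5.0, used here only for names and gene order) matched all 157 identifiers by locus tag. The 9 neighbours from *rpl22* to *rpoA*, a bacterial-type ribosomal protein operon, held 31.5%, 34.9% and 34.9% of plastid UMIs at 7 DAP and 29.1% at 6 DAP. Among them *rpoA* had 1153 UMIs over the 4 libraries, *rpl22* 1102 and *rpl14* 763, while *rps3* had 566, *rpl16* 259, *infA* 140 and *rpl36* 0. The 5 neighbours from *psaJ* to *clpP* held 25.6%, 26.0% and 25.7% at 7 DAP and 23.3% at 6 DAP, mostly through *clpP* and *rpl20*. The run *rpoB*, *rpoC1*, *rpoC2* held 11.2%, 11.0% and 11.4% at 7 DAP and 12.2% at 6 DAP. Over the 4 libraries it had 1310 UMIs of *rpoB*, 348 of *rpoC1* and 544 of *rpoC2*.

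Plastid transcripts were a small part of the RNA measured. In kept cells they were 0.0233%, 0.0195% and 0.0174% of all UMIs at 7 DAP and 0.0157% at 6 DAP (interval 0.0148% to 0.0166%). The mean at 7 DAP was 1.28 times the value at 6 DAP, and the 6 DAP library lay below all 3 libraries of 7 DAP. Most cells had few plastid UMIs or none: 45.7%, 47.1% and 44.0% of kept cells at 7 DAP and 23.1% at 6 DAP had at least 1. With every kept cell thinned at random to 1000 UMIs these were 23.5%, 20.4% and 18.7% at 7 DAP and 13.8% at 6 DAP. Thinning equalises the UMIs drawn and not the depth of the cells they came from, which differed between ages. Every plant cell is taken to hold plastids, so no cell type served as a background for stray RNA, and droplets without a cell were not analysed here.

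The UMIs were uneven over cells. The 5% of kept cells with the most plastid UMIs held 36.2%, 39.9% and 43.6% of them at 7 DAP and 44.3% at 6 DAP. Kept cells with 10 or more plastid UMIs numbered 69, 109 and 86 at 7 DAP and 2 at 6 DAP. Those cells were shallower than the rest, with a median of 2402, 2574 and 2696 UMIs at 7 DAP, and 1.64%, 1.78% and 1.92% of their UMIs were mitochondrial. In cells with 0 plastid UMIs the mitochondrial share was 0.106%, 0.0802% and 0.0744% at 7 DAP. The variance of plastid UMIs over kept cells was 4.57, 6.17 and 7.97 times their mean at 7 DAP and 2.25 times at 6 DAP.

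The plastid share varied most with the number of UMIs of a barcode. Across all deposited barcodes of 7 DAP replicate 1 it was 0.418% in barcodes of 500 to under 1000 UMIs, 0.125% at 1000 to under 2000, 0.0366% at 2000 to under 4000, 0.0183% at 4000 to under 8000, 0.0105% at 8000 to under 16000 and 0.00625% at 16000 or more. Replicate 2 went in the same order, with 0.530%, 0.162%, 0.0481%, 0.0208%, 0.00966% and 0.00647%. Replicate 3 had 0.456%, 0.173%, 0.0467%, 0.0183%, 0.00819% and 0.00415%. At each step the share was lower than at the one before, and the intervals of neighbouring classes did not overlap in any of the 3 libraries. The share in the barcodes of 1000 to under 2000 UMIs was 16.2 times that in barcodes of 8000 to under 16000 UMIs at 7 DAP (geometric mean of 3 libraries, which ranged from 11.9 to 21.2).

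At 6 DAP the share was lower at equal depth and the slope was shallower. It was 0.0408% at 500 to under 1000 UMIs, 0.0222% at 1000 to under 2000, 0.0139% at 2000 to under 4000 and 0.00933% at 4000 to under 8000. Barcodes of 8000 to under 16000 UMIs (27 of them) gave 0.00655% with an interval of 0.00388% to 0.0103%, and the 3 deepest barcodes had 0 plastid UMIs, where 3 UMIs would be 0.00549% and the exact 95% upper limit was 0.00675%. From 4000 to under 8000 down to 1000 to under 2000 UMIs the share was 6.82, 7.78 and 9.46 times as high in the 7 DAP libraries, and 2.38 times as high in the 6 DAP library.

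The number of plastid UMIs per barcode changed far less than the share. In 7 DAP replicate 1 it was 2.99 in the shallowest class, then 1.80, 1.08, 1.05, 1.14 and 1.31 up to the deepest. Replicate 2 had 3.71, 2.35, 1.44, 1.21, 1.08 and 1.41, and replicate 3 had 3.18, 2.48, 1.39, 1.07, 0.910 and 0.932. From 2000 UMIs upward the 7 DAP values thus lay between 0.910 and 1.44 plastid UMIs per barcode. At 6 DAP the number was 0.309, 0.317, 0.382, 0.486 and 0.667 over the first 5 classes. Barcodes under 2000 UMIs held 53.1%, 51.3% and 51.2% of plastid UMIs at 7 DAP, against 8.06%, 4.84% and 4.46% of all UMIs.

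**Figure D2:**
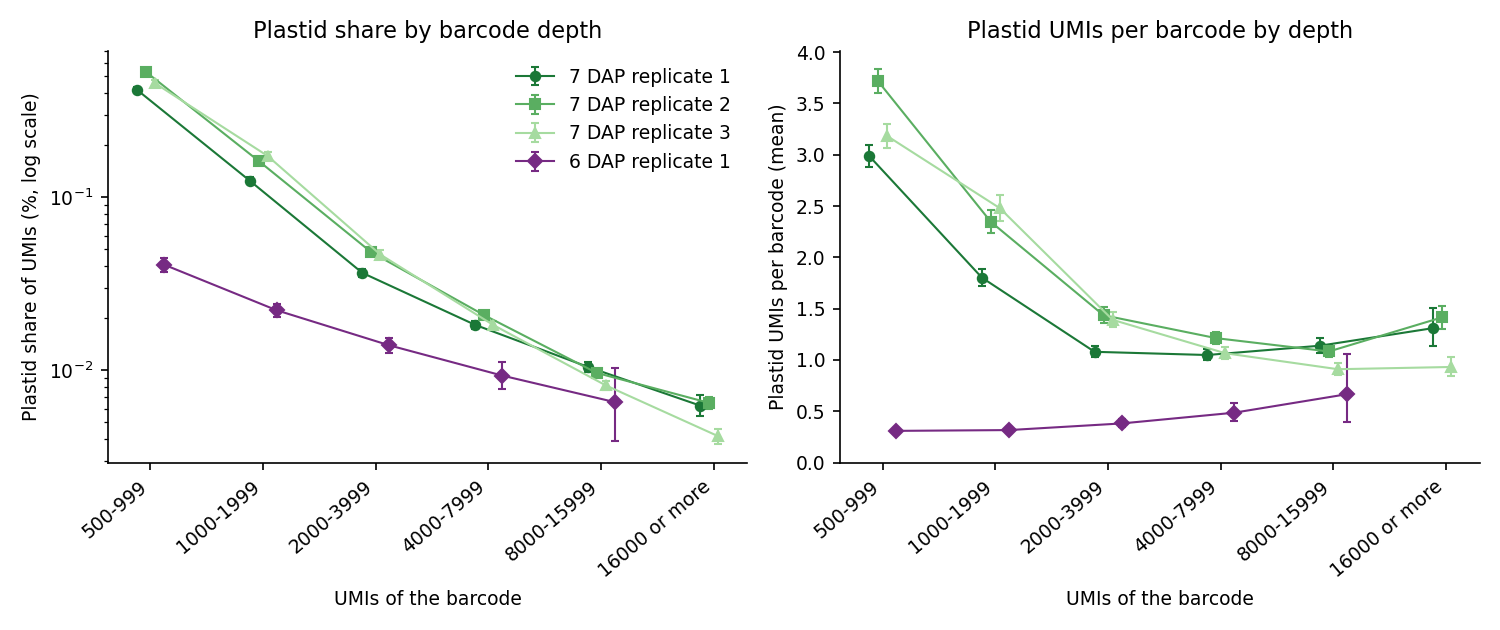
Plastid share of UMIs (%, log scale, left) and mean plastid UMIs per barcode (right) by the total UMIs of the barcode, for all deposited barcodes of each library, with 95% binomial (left) and Poisson (right) intervals. At 7 DAP the share falls from the 0.418% to 0.530% of the shallowest class, and the 6 DAP library lies below in each class up to 4000 to under 8000 UMIs. The class of 3 barcodes with 0 plastid UMIs at 6 DAP is not drawn.

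Genes of the mitochondrial genome, the other organelle with its own transcripts, moved with the plastid genes at 7 DAP. At 7 DAP their share was 3.53%, 4.26% and 4.23% of UMIs in barcodes of 500 to under 1000 UMIs, and 0.0674%, 0.0652% and 0.0439% in those of 16000 or more. Plastid UMIs as a share of plastid plus mitochondrial UMIs stayed within a narrow range, from 8.34% to 11.1% over all classes and libraries of 7 DAP. At 6 DAP this share was lower in deeper barcodes, at 8.56%, 8.07%, 7.51%, 6.35% and 4.80% over the first 5 classes, with an interval of 7.83% to 9.34% in the shallowest and of 2.87% to 7.48% in the deepest of these. In kept cells that share was 9.30%, 8.91% and 9.19% at 7 DAP and 7.53% at 6 DAP (interval 7.11% to 7.97%). The part of total depth, of free RNA or of cell quality in these values was not tested.

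The test by gene compared kept cells of 1000 to under 2000 UMIs with those of 8000 or more, on UMI sums of the 3 libraries of 7 DAP (edgeR quasi-likelihood test with library as a block and Benjamini-Hochberg adjustment over all genes tested). Of all 17280 genes tested, 20.0% were higher and 19.8% lower in the shallow cells. Of the 40 plastid genes that passed the count filter, 40 were higher. That filter passes a gene with enough UMIs in either set of cells, the shallow cells alone included, so the count does not stand for all 157. With no filter other than 1 UMI, 58 plastid genes were tested, of which 44 were higher and 0 lower. In that run 9.30% of all genes were higher and 14.3% lower, and the median over the 58 plastid genes was 3.51. *clpP* had 222, 290 and 285 CPM in the shallow cells, against 16.01, 15.25 and 11.90 CPM in the deep cells, with no overlap and a log2 difference of 3.64 (SE 0.11, adjusted p = 2.0e-22). For *rpoB* the difference was 3.61 (SE 0.16, adjusted p = 2.3e-18). *psbA* was low in the deep cells and is given by values alone. It had 15.3, 14.2 and 11.1 CPM in the shallow cells and 1.54, 0.359 and 0.472 CPM in the deep cells. The 40 log2 differences ranged from 2.98 for *rpl33*, a large-subunit ribosomal protein, to 4.81 for *psbB*, a chlorophyll-binding core protein of photosystem II. Both ends rest on few UMIs, 49 for *rpl33* and 59 for *psbB* in kept cells of the 4 libraries. The median of the 40 differences was 3.64, beside 0.03 over all genes tested and 3.67 over the 59 mitochondrial genes tested. Scaled by total UMIs alone, without TMM factors (edgeR's library scaling), the median of all genes was 0.59 and that of the plastid genes 4.21.

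The makeup of the plastid UMIs changed less with depth than their share did. *clpP* held 17.3%, 17.7% and 17.2% of plastid UMIs in 7 DAP barcodes under 2000 UMIs, and 16.9%, 18.1% and 18.2% in those of 8000 or more. Photosynthesis genes together held 19.0%, 16.8% and 16.8% in the shallow barcodes and 23.2%, 17.1% and 17.7% in the deep ones. *ndhC*, a subunit of the NDH complex, held 2.34%, 1.80% and 2.18% in the shallow barcodes and 4.25%, 2.89% and 3.41% in the deep ones, without overlap between the 2 sets of libraries.

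Between ages, plastid genes were compared by size alone. A gene passed if the lowest 7 DAP library had at least 2 times the CPM of the 6 DAP library, or the highest at most 0.5 times it, with a mean of at least 10 CPM over the 4 libraries. Of 9818 genes measured so, 1.34% passed as higher and 0.835% as lower at 7 DAP. Of the 157 plastid genes 7 reached that mean, and 1 of these passed as higher. *rpl20*, a large-subunit ribosomal protein, was close to the limit, with 14.9, 14.2 and 12.5 CPM at 7 DAP and 6.74 CPM at 6 DAP (95% Poisson interval 4.97 to 8.94). *clpP* had 39.8, 33.1 and 29.3 CPM at 7 DAP and 27.4 CPM at 6 DAP (23.7 to 31.5), and its interval reached into the range of the 7 DAP libraries.

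With a minimum mean of 1 CPM, where 2.91% of 18140 genes passed as higher and 1.62% as lower, 32 plastid genes were measured and 3 passed as higher, *rps18* and *psbA* among them. Both had 5 UMIs or 0.702 CPM at 6 DAP (interval 0.228 to 1.64), which covers the lowest 7 DAP values, 1.57 CPM for *rps18* and 1.499 CPM for *psbA*.

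Among the genes under 10 CPM, *ndhC* lay above the 7 DAP range at 6 DAP. It had 6.57, 4.84 and 4.81 CPM at 7 DAP and 10.8 CPM at 6 DAP (8.54 to 13.5). *rpl32*, a large-subunit ribosomal protein, had 6.80, 5.54 and 5.09 CPM at 7 DAP against 2.67 CPM at 6 DAP (1.61 to 4.17), and *atpA*, the alpha subunit of ATP synthase, had 4.77, 3.99 and 3.08 CPM at 7 DAP against 1.97 CPM at 6 DAP (1.08 to 3.30). For *matK*, *rpoC2*, *atpF*, *rpoC1*, *ndhD* and *ycf3* the 6 DAP value lay inside the range of the 7 DAP libraries. Over the 58 detected genes the 6 DAP library was below that range for 23, above it for 8 and inside it for 27. No share over all genes stands beside these counts. Some of the 58 rest on few UMIs, such as *psbE* with 5 in kept cells of the 4 libraries. The counts are therefore not read as a shift of the plastid genes with age.

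**Figure D3:**
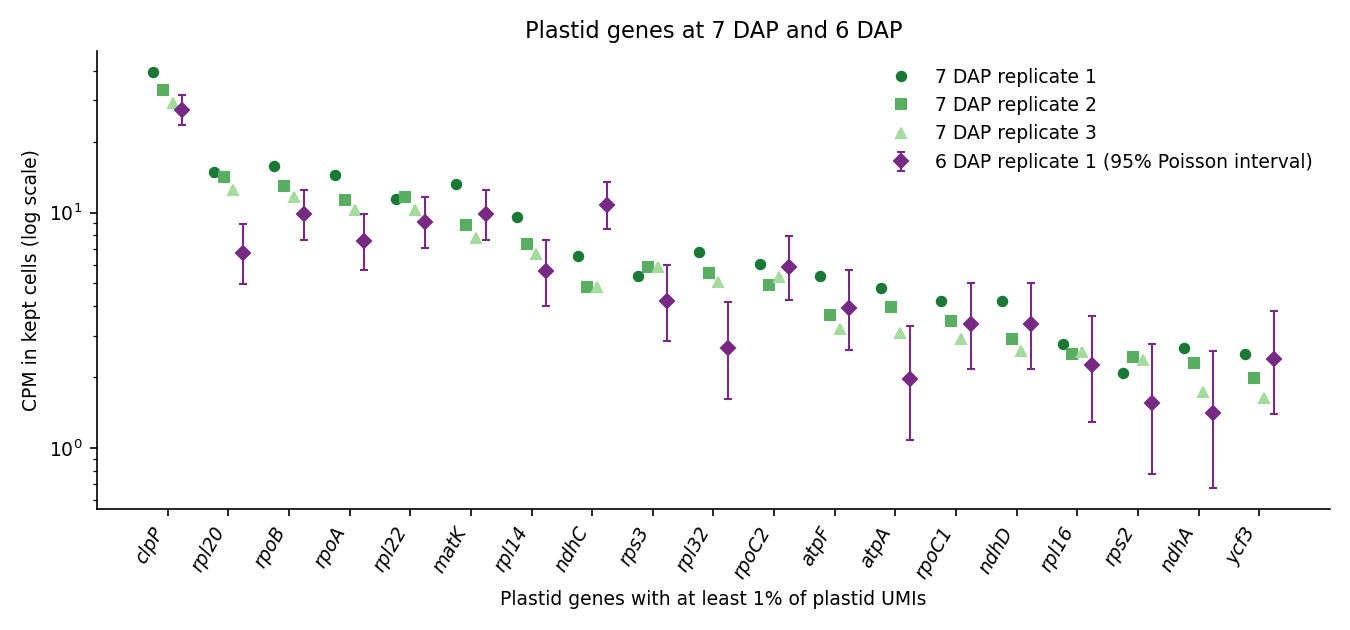
CPM in kept cells (log scale) of 19 of the 21 plastid genes with at least 1% of plastid UMIs, for the 3 libraries of 7 DAP and the library of 6 DAP, whose bars are 95% Poisson intervals. The 6 DAP interval lies wholly below the 7 DAP points for *rpl20*, *rpoA* and *rpl32*, and wholly above them for *ndhC*.

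Within each class of kept cells under 8000 UMIs the ages stood further apart than the ratio of 1.28 over all kept cells. In kept cells of 2000 to under 4000 UMIs, plastid genes averaged 0.0438% ± 0.00628 of UMIs at 7 DAP (SD, n = 3) and 0.0139% at 6 DAP, a ratio of 3.14. In kept cells of 1000 to under 2000 UMIs they averaged 0.153% ± 0.0260 at 7 DAP and 0.0222% at 6 DAP, a ratio of 6.90. In kept cells of 4000 to under 8000 UMIs the share was 0.0183%, 0.0209% and 0.0183% at 7 DAP and 0.00933% at 6 DAP. In those of 8000 to under 16000 UMIs it was 0.0105%, 0.00969% and 0.00820% at 7 DAP and 0.00655% at 6 DAP, where the 6 DAP interval of 0.00388% to 0.0103% reached the 7 DAP values, so that the ratio between ages was larger in shallower cells. With the size rule run on cells of 2000 to under 4000 UMIs, an alternative chosen after seeing the data, 12 plastid genes reached a mean of 10 CPM, and 9 passed as higher at 7 DAP and 0 as lower, where 3.58% of 10493 genes passed as higher and 0.791% as lower. Among them were *clpP*, *rpl14*, *rpl20*, *rpl22*, *rpl32*, *rpoA*, *rpoB* and *rps3*. *clpP* then had 58.5, 76.3 and 80.4 CPM at 7 DAP and 23.3 CPM at 6 DAP, while *ndhC* had 8.29, 10.7 and 12.0 CPM at 7 DAP and 11.1 CPM at 6 DAP.

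Cells were next divided by 3 cell type markers: *BETL9* for the basal endosperm transfer layer, *FL3* for starchy endosperm and *AL9* for aleurone, the outermost layer. A marker cell had at least 2 UMIs of 1 marker, at no less than that marker's share of its library, and met this for no other marker. This gave 392, 376 and 361 *BETL9*-marker cells at 7 DAP and 259 at 6 DAP, 606, 616 and 575 *FL3*-marker cells at 7 DAP and 332 at 6 DAP, and 1404, 1448 and 1349 *AL9*-marker cells at 7 DAP and 1027 at 6 DAP. A marker cell is a range of a marker's share and not a type. Of kept cells, 470 to 609 at 7 DAP had an *AL9* share within 25% of the limit. Of the other markers checked, the aleurone marker Zm00001d024210 had 0 UMIs in all 3 sets, and 1 marker of each type is given here. At 7 DAP *BAP2* had 5959 to 6354 CPM in *BETL9*-marker cells, against at most 239 CPM in the other 2 sets. *TAR1* had 1134 to 1384 CPM in *FL3*-marker cells, against at most 247 CPM, and *SBT1* had 740 to 790 CPM in *AL9*-marker cells, against at most 69.4 CPM. The *FL3*-marker cells also held *ESR1*, a marker of the embryo-surrounding region, at 22.2, 356 and 570 CPM in 7 DAP replicates 1, 2 and 3.

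Of the 3 sets, *FL3*-marker cells had the highest plastid share in every library. At 7 DAP it was 0.0131%, 0.00726% and 0.00795% in *BETL9*-marker cells, 0.0426%, 0.0342% and 0.0348% in *FL3*-marker cells, and 0.0133%, 0.0113% and 0.00979% in *AL9*-marker cells. At 6 DAP it was 0.0105% in *BETL9*-marker cells, 0.0187% in *FL3*-marker cells and 0.0120% in *AL9*-marker cells. *FL3*-marker cells were above *AL9*-marker cells in 3 of 3 libraries of 7 DAP, by 0.0257 ± 0.00328 percentage points (SD, n = 3) or 3.25 times, and the exact two-sided sign-flip test gave p = 0.25, the smallest that 3 libraries allow. *BETL9*-marker cells were below *FL3*-marker cells in 3 of 3, at 0.246 times their share (exact sign-flip p = 0.25). *BETL9*-marker cells had 0.799 times the share of *AL9*-marker cells, with a range of 0.640 to 0.982 over libraries (exact sign-flip p = 0.25). At 6 DAP *FL3*-marker cells had 1.56 times the share of *AL9*-marker cells, and the difference of this ratio from that at 7 DAP was not tested.

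Cells with no marker held 0.0284%, 0.0259% and 0.0236% at 7 DAP and 0.0187% at 6 DAP, and so lay between *FL3*-marker cells and the other sets at 7 DAP and level with *FL3*-marker cells at 6 DAP.

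The marker cells differed in depth. The median at 7 DAP was 6807, 9590.5 and 11335 UMIs in *BETL9*-marker cells, 3434.5, 4931 and 4330 UMIs in *FL3*-marker cells, and 4693, 6651 and 6909 UMIs in *AL9*-marker cells. Within cells of 2000 to under 8000 UMIs the share at 7 DAP was 0.0197%, 0.0128% and 0.0212% in *BETL9*-marker cells, 0.0443%, 0.0359% and 0.0394% in *FL3*-marker cells, and 0.0133%, 0.0184% and 0.0149% in *AL9*-marker cells. The *FL3*-marker cells were thus 2.58 times as high as *AL9*-marker cells (range 1.95 to 3.34 over 3 libraries), and *BETL9*-marker cells 1.14 times as high, with 2 libraries above 1 and replicate 2 at 0.696. The order was not the same in every narrower class. At 1000 to under 2000 UMIs the share was 0.125%, 0.163% and 0.163% in *FL3*-marker cells and 0.0979%, 0.101% and 0.104% in *AL9*-marker cells. The 2 sets were further apart in ratio at 4000 to under 8000 UMIs. There *FL3*-marker cells had 0.0351%, 0.03145% and 0.0361%, and *AL9*-marker cells 0.00985%, 0.0146% and 0.0116%. In replicate 3 at 2000 to under 4000 UMIs *BETL9*-marker cells (24 cells) had 0.0574% and *FL3*-marker cells 0.0478%, and at 16000 or more UMIs *FL3*-marker cells (9 cells) had 0.00405% and *AL9*-marker cells 0.00478%. At 6 DAP the cells of 2000 to under 8000 UMIs had 0.00887% in *BETL9*-marker cells, 0.0162% in *FL3*-marker cells and 0.00964% in *AL9*-marker cells, each below every 7 DAP library of its own set. Per cell, the *FL3*-marker cells carried 1.87, 1.93 and 1.78 plastid UMIs at 7 DAP, against 0.964, 0.766 and 0.953 in *BETL9*-marker cells and 0.781, 0.915 and 0.823 in *AL9*-marker cells.

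**Figure D4:**
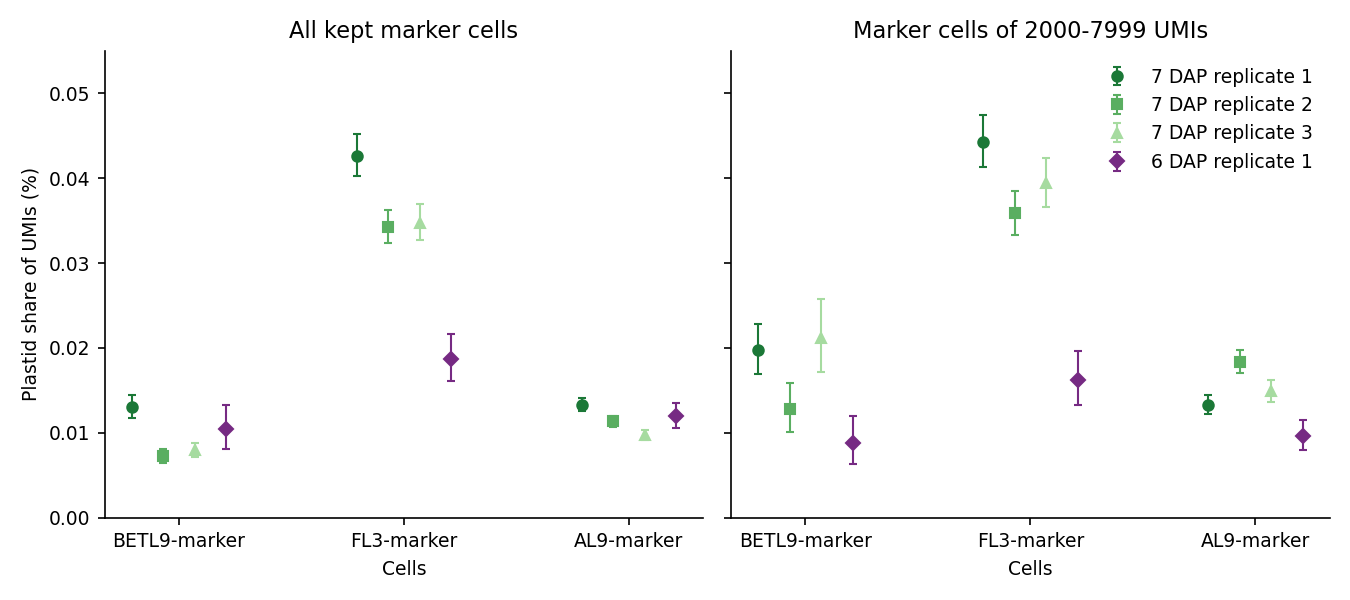
Plastid share of UMIs (%) in *BETL9*-, *FL3*- and *AL9*-marker cells of each library, over all kept marker cells (left) and over those of 2000 to under 8000 UMIs (right), with 95% binomial intervals that cover counting error only. *FL3*-marker cells lie at 0.0342% to 0.0426% at 7 DAP on the left and stay above the other 2 sets of their library on the right.

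Mitochondrial genes had the same order. At 7 DAP their share was 0.114%, 0.0738% and 0.0694% in *BETL9*-marker cells, 0.410%, 0.363% and 0.364% in *FL3*-marker cells and 0.129%, 0.107% and 0.0860% in *AL9*-marker cells. Plastid UMIs were 10.3%, 8.96% and 10.3% of organelle UMIs in *BETL9*-marker cells, 9.43%, 8.62% and 8.73% in *FL3*-marker cells, and 9.36%, 9.61% and 10.2% in *AL9*-marker cells. Whether plastid number, RNA per plastid, free RNA or the state of the protoplasts goes with these differences was not tested.

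By gene, the *FL3*-marker cells of 7 DAP stood apart from both other sets (edgeR quasi-likelihood test, library as block, adjusted over 16053 genes). Of all genes 30.6% were higher and 30.3% lower in *FL3*-marker than in *AL9*-marker cells, and of the 22 plastid genes that passed the count filter 20 were higher and 0 lower. At an unadjusted p under 0.05 there were 21 higher and 0 lower. With DESeq2 17 were higher and 0 lower, where 20.3% of all genes were higher and 24.5% lower. A gene can pass the filter, a minimum count of 10, through the *FL3*-marker cells alone, so these counts do not stand for all 157. The counts include *psbA* and *rpoC1*, which were low outside the *FL3*-marker cells. With no filter other than 1 UMI, 57 plastid genes were tested and 24 were higher, where 17.5% of all genes were higher and 20.5% lower. *rpl22*, a large-subunit ribosomal protein, had 23.7, 25.1 and 25.4 CPM in *FL3*-marker cells against 4.86, 6.85 and 4.41 CPM in *AL9*-marker cells (1.67, SE 0.17, adjusted p = 1.3e-09). *rpl20* had 25.9, 25.6 and 24.4 CPM in *FL3*-marker cells against 7.41, 7.62 and 6.97 CPM in *AL9*-marker cells (1.27, SE 0.14, adjusted p = 5.2e-09). Neither gene overlapped between the sets.

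Of the genes known to be read by the nuclear-encoded polymerase, *clpP*, *rpoB* and *rpoC2* were higher in *FL3*-marker cells. *clpP* had 65.4, 53.3 and 48.5 CPM in *FL3*-marker cells against 24.1, 20.4 and 17.4 CPM in *AL9*-marker cells, a log2 difference of 0.92 (SE 0.11, adjusted p = 1.5e-08). *rpoB* differed by 0.91 (SE 0.18, adjusted p = 6.5e-05) and *rpoC2* by 1.38 (SE 0.22, adjusted p = 3.8e-06). *rpoC1* had 9.02, 5.47 and 8.81 CPM in *FL3*-marker cells against 1.46, 1.88 and 1.32 CPM in *AL9*-marker cells. It is given by values alone, as is *psbA*, since both were low outside the *FL3*-marker cells. *psbA*, of photosystem II, had 4.51, 4.03 and 5.08 CPM in *FL3*-marker cells against 0.851, 0.600 and 1.06 CPM in *AL9*-marker cells. The 2 genes that were not called were both of the NDH complex, *ndhC* with 0.52 (SE 0.24, adjusted p = 0.061) and *ndhA* with 0.44 (SE 0.36). *ndhA* was low outside the *FL3*-marker cells as well. It had 3.01, 3.17 and 3.05 CPM in *FL3*-marker cells against 1.94, 1.71 and 1.15 CPM in *AL9*-marker cells. The median log2 difference over the 22 genes was 1.23, and 1.00 over the 57 with no filter other than 1 UMI, beside 0.02 over all genes tested and 1.11 over 43 mitochondrial genes. Differences between plastid genes in the size of the change were not tested.

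*BETL9*-marker cells lay below *FL3*-marker cells for most plastid genes, and on both sides of *AL9*-marker cells. These comparisons share their cells with the one above. Against *FL3*-marker cells, where 30.2% of all genes were higher and 30.8% lower, 0 of the 22 plastid genes were higher and 19 lower. At an unadjusted p under 0.05 there were 20 lower. With DESeq2 15 were lower and 0 higher, where 22.9% of all genes were lower and 26.3% higher. Here too a gene can pass the filter through the *FL3*-marker cells alone. With no filter other than 1 UMI, 57 plastid genes were tested, of which 20 were lower and 0 higher. In that run 19.3% of all genes were lower and 19.4% higher. *rpl22* had 6.92, 4.04 and 3.47 CPM in *BETL9*-marker cells against 23.7, 25.1 and 25.4 CPM in *FL3*-marker cells (-1.63, SE 0.23, adjusted p = 3.8e-07), and *clpP* fell by 1.21 on the log2 scale (SE 0.14, adjusted p = 1.8e-08). *ndhC* had 4.84, 5.30 and 3.93 CPM in *BETL9*-marker cells against 10.1, 5.76 and 5.42 CPM in *FL3*-marker cells, a log2 difference of 0.23 (SE 0.27, adjusted p = 0.48). Its direction followed the scaling, since total UMIs alone gave -0.55 (adjusted p = 0.062). Scaling by total UMIs alone moved the median of all genes to -0.84 here, to -0.29 in *BETL9*- over *AL9*-marker cells and to 0.53 in *FL3*- over *AL9*-marker cells. In cells of 2000 to under 8000 UMIs 6 of 16 plastid genes were lower in *BETL9*-marker cells. There 17.4% of all genes were lower and 20.6% higher.

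Against *AL9*-marker cells, where 29.3% of all genes were higher and 29.4% lower, 1 of the 22 plastid genes was higher and 1 lower in *BETL9*-marker cells. The counts changed with scaling and depth. Total UMIs alone gave 0 higher and 4 lower, where 18.4% of all genes were higher and 43.9% lower. Cells of 2000 to under 8000 UMIs gave 3 higher and 0 lower of 16 plastid genes tested. There 18.9% of all genes were higher and 18.9% lower. *ndhC* was higher by 0.75 (SE 0.25, adjusted p = 0.013), at 4.84, 5.30 and 3.93 CPM in *BETL9*-marker cells against 4.01, 3.00 and 3.26 CPM in *AL9*-marker cells. Without 7 DAP replicate 2 this was 0.57 with an adjusted p of 0.15, with DESeq2 0.75 with an adjusted p of 0.088, and with total UMIs alone 0.47 with an adjusted p of 0.11. Of the other 20 genes *clpP* had a log2 difference of -0.29 (SE 0.14, adjusted p = 0.080) and *rpl22* of 0.04 (SE 0.25, adjusted p = 0.91).

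**Figure D5:**
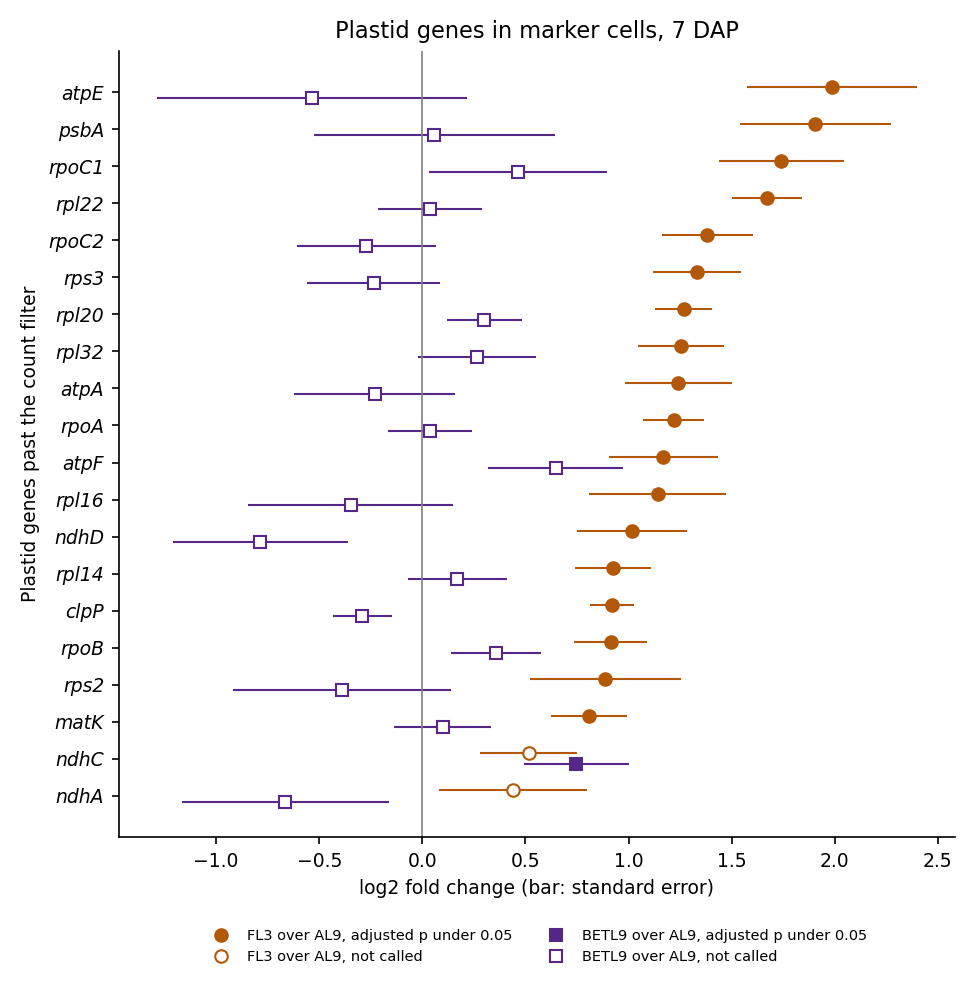
Log2 fold change of 20 of the 22 plastid genes past the count filter in *FL3*-marker over *AL9*-marker cells (circles) and *BETL9*-marker over *AL9*-marker cells (squares) at 7 DAP, with standard errors from edgeR on 3 libraries. Filled points had an adjusted p under 0.05. Some of the genes drawn, such as *psbA* and *rpoC1*, were low outside the *FL3*-marker cells. The circles lie between 0.44 and 1.99, while the squares lie on both sides of 0.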

How the data were processed

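Groups and replicate numbers came from the sample titles. The deposited values were raw UMI counts, which the authors obtained with Cell Ranger (version 4.0.0 per the file headers). The genome build of the single-cell alignment was not given in the sources used here. Members and lists were chosen with earlier results of these data known. Kept cells had 500 to 7500 genes, at least 1000 UMIs and a ratio of log genes to log UMIs of at least 0.8, a reading of the study's filter. Doublets were not removed. Cells were summed by library and converted to CPM, or tested as counts with edgeR 4.0.16 (TMM, filterByExpr with a minimum count of 10, library as block, Benjamini-Hochberg threshold of 0.05), with DESeq2 1.42.0 as an alternative, after tests on simulated data. Single values used exact sign-flip tests over libraries (SciPy 1.17.1). Intervals are exact 95% (SciPy 1.17.1) and cover counting error only. Genes with at least 1% of plastid UMIs were named, with up to 10 in each direction among those called or past the size rule. Other genes, such as *psbA*, *rpl33*, *psbB*, *infA* and those at 0, were named after their values were seen. Alternatives changed the cells, denominators, scaling, filters, marker limits and libraries. Values of 2 plastid genes are not reported here, in the text or the figures.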

Additional observations from a re-analysis of the deposited data

How the results depend on the processing

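Values here are log2 ratios or counts of plastid genes. The 7 DAP over 6 DAP ratio of the plastid share was 0.36, and became 0.61 over all deposited barcodes, 1.29 with each cell thinned to 1000 UMIs, 2.79 in cells of 1000 to under 2000 UMIs and 1.65 in cells of 2000 to under 4000 UMIs (0.24 to 0.45 with a 7 DAP replicate left out). The size rule between ages passed 1 gene, against 2 with TMM factors and 3 at a minimum mean of 1 CPM. Of all genes 1.34%, 1.76% and 2.91% then passed as higher and 0.835%, 0.479% and 1.62% as lower. In kept cells of 2000 to under 4000 UMIs (chosen after seeing the data) it passed 9, where 3.58% of all genes passed as higher. With a replicate left out it passed 1 to 2, where 1.33% to 1.62% of all genes passed as higher. With no minimum it passed 11 of 58 plastid genes, 10 as higher and 1 as lower. There 21.6% of all genes passed as higher and 4.77% as lower. Some of the 11 rest on few UMIs, such as *petD* with 2 in kept cells of the 4 libraries. In cells of 2000 to under 8000 UMIs the share of *BETL9*- over *AL9*-marker cells was 0.19 (otherwise -0.32), that of *BETL9*- over *FL3*-marker cells -1.18 (otherwise -2.02), and that of *FL3*- over *AL9*-marker cells 1.37 (otherwise 1.70). Thinning gave -1.65 for *BETL9*- over *FL3*-marker cells and 1.44 for *FL3*- over *AL9*-marker cells, which had 1.55 without the 3 markers in the denominator and 1.88 at 2 times the marker share. In *BETL9*- over *AL9*-marker cells 1 of 22 plastid genes was higher and 1 lower. With DESeq2 0 were higher and 1 lower, and with total UMIs alone 0 and 4. Of all genes 29.3% were higher and 29.4% lower, against 23.3% and 22.5% with DESeq2 and 18.4% and 43.9% with total UMIs alone. In cells of 2000 to under 8000 UMIs 6 of 16 plastid genes were lower in *BETL9*- than in *FL3*-marker cells (otherwise 19 of 22). There 17.4% of all genes were lower. In the same range of UMIs 12 of 16 were higher in *FL3*- than in *AL9*-marker cells (otherwise 20 of 22), where 28.0% of all genes were higher. In that range *matK* (0.44), *rpoB* (0.34) and *rpoA* (0.066) turned direction in *BETL9*- over *FL3*-marker cells. The cause was not tested. Without the replicate block 40 genes were called by depth, 2 in *BETL9*- over *AL9*-marker cells, 18 in *BETL9*- over *FL3*-marker cells and 20 in *FL3*- over *AL9*-marker cells. In those fits 20.6% of all genes were higher in shallow cells. Of all genes 29.6% were lower in *BETL9*- than in *FL3*-marker cells and 28.9% higher in *FL3*- than in *AL9*-marker cells. In *BETL9*- over *AL9*-marker cells 27.9% were higher and 27.9% lower. No paired analysis was possible between ages because they share only replicate number 1. The median over barcodes was 0 in deep classes and gave no ratio. With 1.24 to 1.42 plastid UMIs per kept cell at 7 DAP and 0.355 at 6 DAP, depth limits any statement on single cells.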
